A study of Mus musculus with 10 samples.

Results

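The genes described are 10 immediate early genes, chosen by symbol from the table of 25178 genes: the AP-1 subunit genes Fos, Fosb, Jun, Junb and Jund, the related factor genes Atf3 and Egr1, Ier2, and the feedback genes Dusp1 and Zfp36. All 10 were found, and 9 passed the filter on low counts, the exception being Atf3. The libraries came from lineage-depleted marrow, that is bone marrow cells left after magnetic removal of cells with markers of mature blood lineages, flushed from 1 hindlimb of each mouse. The groups were 5 female and 5 male C57/BL6 mice, an inbred strain, at steady state, with 1 library per mouse. No agent or engineered allele is named for either group, and neither the age of the mice nor the interval from death to lysis is stated. The design asks how marrow stem and progenitor cells differ between the sexes.

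Immediate early genes are switched on within minutes of a stimulus, without new protein synthesis, because the factors that bind their promoters are already present and need only be phosphorylated. FOS and JUN proteins pair through leucine zippers to form the transcription factor AP-1, EGR1 is a zinc finger factor induced beside them, and the products of Dusp1 and Zfp36 end the response by dephosphorylating MAP kinases and by destabilising short-lived mRNAs. The same genes are known to rise when tissue is dissociated or cells are held before lysis.

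RefSeq (GRCm38.p6) gave a promoter window for 8 of the 10 genes, and the promoters of Egr1 and Ier2 were not analysed here. The 250 bases before the RefSeq start are shown for Fos and Fosb, which varied most between mice, and for Dusp1 and Zfp36, which had the largest differences between the sexes. Capitals mark TGACG on either strand, the core of the cyclic AMP response element, and the CArG box, the site of serum response factor. The windows are chr12:85473640-85473889 on the plus strand for Fos and, on the minus strand, chr7:19310046-19310295 for Fosb, chr17:26508473-26508722 for Dusp1 and chr7:28379229-28379478 for Zfp36. For Dusp1 and Zfp36, and for Atf3 among the windows not shown, the RefSeq start lies inside the longer GENCODE gene. The window of Jund, also not shown, ends at 70697738, before the GENCODE start at 70698949. Windows of these genes thus need not stand before the start that was used.
Fos: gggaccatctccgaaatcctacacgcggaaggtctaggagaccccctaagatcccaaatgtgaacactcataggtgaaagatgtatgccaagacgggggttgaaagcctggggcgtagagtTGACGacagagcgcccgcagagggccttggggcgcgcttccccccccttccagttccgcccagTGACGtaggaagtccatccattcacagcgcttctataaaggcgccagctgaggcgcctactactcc
Fosb: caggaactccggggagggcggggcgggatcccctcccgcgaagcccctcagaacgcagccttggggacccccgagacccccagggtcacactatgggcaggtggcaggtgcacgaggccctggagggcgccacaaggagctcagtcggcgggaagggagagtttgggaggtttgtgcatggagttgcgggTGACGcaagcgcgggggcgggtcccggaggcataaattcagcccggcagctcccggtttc
Dusp1: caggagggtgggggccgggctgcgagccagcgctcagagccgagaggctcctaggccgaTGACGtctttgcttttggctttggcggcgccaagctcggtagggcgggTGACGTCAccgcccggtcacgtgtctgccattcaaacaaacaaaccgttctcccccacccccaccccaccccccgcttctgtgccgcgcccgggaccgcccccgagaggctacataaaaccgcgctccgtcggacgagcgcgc
Zfp36: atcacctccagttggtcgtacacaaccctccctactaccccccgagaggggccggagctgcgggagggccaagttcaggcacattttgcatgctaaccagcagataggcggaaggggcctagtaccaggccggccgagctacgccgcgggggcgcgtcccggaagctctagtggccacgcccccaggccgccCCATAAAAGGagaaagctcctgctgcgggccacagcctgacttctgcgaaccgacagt

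Fos held TGACG at 129 to 125 and at 66 to 62 bases before its start, and Fosb at 60 to 56. Dusp1 held it at 191 to 187 and, at 143 to 136, the full palindrome TGACGTCA, in which the core is read on both strands. Zfp36 held no TGACG but a CArG box at 58 to 49. Junb and Atf3 also held TGACG, which makes 5 of the 8 members with a window, against 17.8% of all 32851 windows of this length in the table. TGACGTCA stood in 1 member and 1.55% of windows, the CArG box in 1 member and 1.47%, and the AP-1 site TGANTCA in 0 members and 6.75%, each searched on both strands. These matches describe letters in a short window and say nothing of what binds there.

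Total counts per library ran from 20754101 to 24759687. On the first principal component of the 1000 most variable genes (38.4% of variance), male replicates 1 and 2 stood apart with scores of 35.3 and 36.7, against at most 6.04 in the others, and results that rest on them are given with and without them. Genes of the labelled cells were present, with means over the 10 libraries of 264 CPM (read counts scaled to the library total) for Kit, 107 for Cd34 and 37.8 for Flt3. Other cell types were also represented. The collagen genes Col1a1 and Col1a2 averaged 569 and 410 CPM. The summed level of 11 mature neutrophil markers ran from 282 to 1050 CPM in females and from 227 to 9352 CPM in males.

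To compare genes, levels were put on a scale of CPM per kb of exon, with the length taken over all annotated exons of a gene. This scale holds only as far as that length fits the transcripts present. Ier2 led with 25.9 ± 3.64 (SD, n = 10), followed by Jund at 17.9 ± 2.73 and Junb at 13.03 ± 1.32. Fos (11.6 ± 3.71) and Jun (9.83 ± 2.15) came next, then Zfp36 (6.47 ± 2.06), Dusp1 (4.82 ± 1.22), Fosb (1.39 ± 0.654), Egr1 (0.935 ± 0.191) and Atf3 (0.114 ± 0.0916). Ier2 lay above Jund, Jund above Junb, Dusp1 above Fosb, and Egr1 above Atf3 in all 10 libraries, and each gap exceeded the SDs of both neighbours. Jun exceeded Zfp36 by more than either SD and in 9 of 10 libraries, but this step depends on the length used for Zfp36. That length was 1 block of 3470 bases spanning the whole GENCODE gene, inside which the RefSeq start lies. The length of Fosb, the longest of the 10, was 6243 bases in 2 blocks, and its place in the order depends on it likewise. The steps from Junb to Fos (7 of 10 libraries), Fos to Jun (8 of 10), Zfp36 to Dusp1 (9 of 10) and Fosb to Egr1 (7 of 10) were not larger than the spread of the genes involved.

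**Figure D1:**
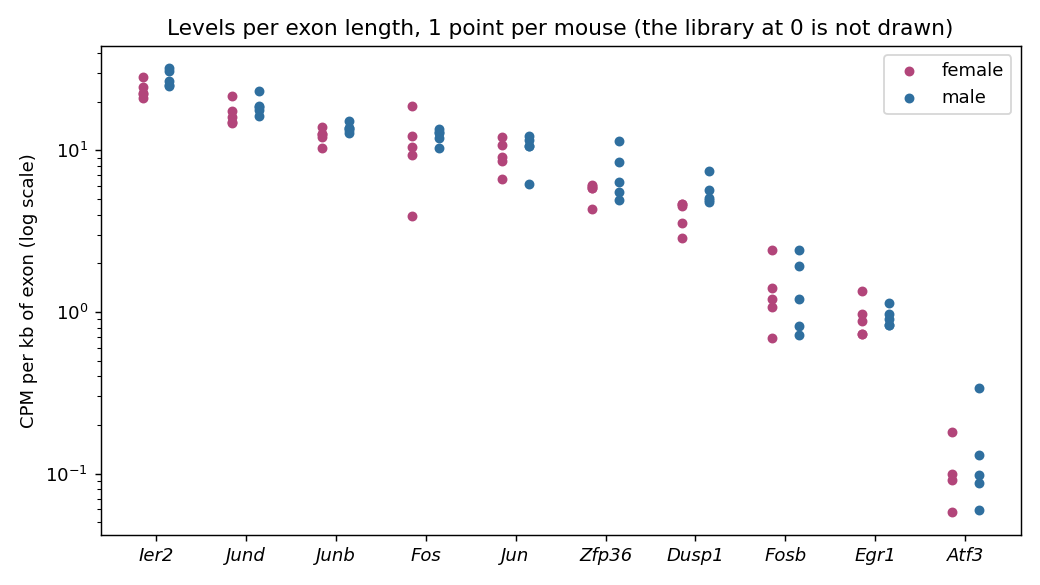
Level of each gene in CPM per kb of exon on a log axis, 1 point per mouse, with females and males in separate columns and genes in order of their mean. Ier2 has the highest mean at 25.9, Fosb and Egr1 average 1.39 and 0.935, and Atf3 averages 0.114.

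None of the 9 tested genes differed between the sexes by edgeR's quasi-likelihood test with Benjamini-Hochberg adjustment over all 14674 genes tested. The adjusted p ran from 0.506 to 0.992, the DESeq2 Wald test called 0 of the 9 as well, and 1 member, Dusp1, had an unadjusted edgeR p under 0.05. Over all genes edgeR called 8, or 0.0545%, and 9.17% had an unadjusted p under 0.05, with 3.76% higher and 5.41% lower in females. All 9 fold changes were negative, that is lower in females, with a median log2 value of -0.16, against -0.01 for all genes tested, of which 52% were negative. Scaling by DESeq2's size factors left all 9 negative (median -0.16). The direction was not stable to single mice for Fos, Fosb and Egr1, nor for Zfp36 without male replicates 1 and 2, as given with each gene.

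**Figure D2:**
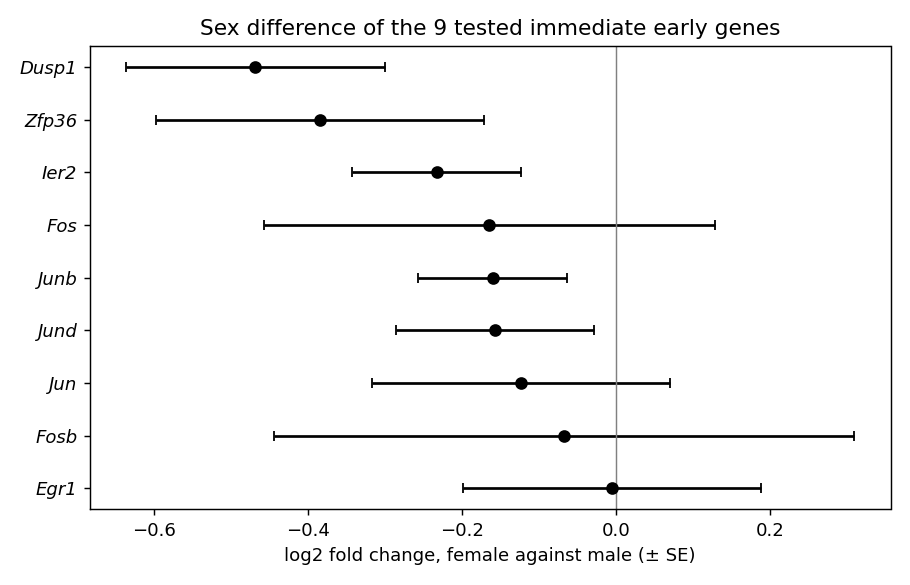
Log2 fold change of the 9 tested genes, female against male, with bars of 1 SE. Dusp1, at -0.47, is farthest from 0 and Egr1, at -0.0045, nearest, and none passed the adjusted test.

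Fos (chromosome 12: 85473890 to 85477273) encodes the FOS subunit that gives AP-1 its rapid rise. It was at 43.9, 24.8, 22.0, 9.29 and 29.0 CPM in female replicates 1 to 5, and at 24.2, 31.7, 30.7, 30.1 and 27.8 CPM in male replicates 1 to 5. The highest and the lowest of the 10 mice were both female, and the 5 males lay between them. Females averaged 25.8 ± 12.5 CPM and males 28.9 ± 3.002 CPM (SD, n = 5 each), with a log2 fold change of -0.16 (SE 0.29, edgeR adjusted p = 0.779). Without female replicate 4 the value was 0.05 and without female replicate 1 it was -0.44. On the log2 scale the SD of Fos was 0.82 in females and 0.16 in males, a difference in spread that was not tested.

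Fosb (chromosome 7: 19302696 to 19310051) encodes a close relative of FOS that also pairs with JUN proteins. Its levels were 15.1, 7.56, 6.67, 4.29 and 8.76 CPM in female replicates 1 to 5 and 4.49, 5.14, 7.51, 12.0 and 15.2 CPM in male replicates 1 to 5. Both sexes covered the same range, with female replicate 1 and male replicate 5 near 15 CPM at the top. The means were 8.47 ± 4.05 and 8.86 ± 4.59 CPM (log2 fold change -0.07, SE 0.38, adjusted p = 0.936), and the sign turned when any 1 of male replicates 4 and 5 and female replicates 3 and 4 was left out (range with 1 library left out -0.38 to 0.21), while the value was -0.45 without male replicates 1 and 2.

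Jun (chromosome 4: 95049034 to 95052222), the partner that forms AP-1 with FOS or with itself, was at 34.3, 29.1, 27.3, 21.1 and 38.3 CPM in female replicates 1 to 5. Male replicates 1 to 5 had 19.7, 34.0, 33.8, 37.0 and 39.0 CPM. Male replicate 1 thus lay far below the other males and also below every female. The log2 fold change was -0.12 (SE 0.19, adjusted p = 0.749), and with 1 library left out it ran from -0.26 (without male replicate 1) to -0.02 (without female replicate 4). Jun shares 232 exon bases with the antisense gene Junos, which had 65 counts over the 10 libraries. Whether reads were counted by strand is not stated, so reads of such antisense partners cannot be told apart.

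Junb and Jund encode JUN proteins that are weaker activators than JUN and can oppose it. Junb (chromosome 8: 84974484 to 84978718) was the steadiest member, at 29.1, 23.8, 28.8, 27.6 and 32.2 CPM in female replicates 1 to 5 and 35.1, 31.5, 30.6, 29.3 and 31.6 CPM in male replicates 1 to 5. The sexes overlapped only through female replicate 5, which lay above 4 of the 5 males. The log2 fold change was -0.16 (SE 0.10, adjusted p = 0.508), or -0.10 without female replicate 2. Junb shares 173 exon bases with the peroxiredoxin gene Prdx2 on the opposite strand, which red cell precursors express strongly and which averaged 828 ± 117 CPM among females and 1041 ± 257 among males, so its level is uncertain to that extent. Jund (chromosome 8: 70698949 to 70700616) ran from 24.6 to 35.9 CPM in females and from 27.3 to 38.7 CPM in males (log2 fold change -0.16, SE 0.13, adjusted p = 0.568), which moved to -0.07 on leaving out male replicate 2 and to -0.26 on leaving out female replicate 1. It shares 877 exon bases with the antisense gene Gm11175, which was not analysed here.

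The mean makeup of the AP-1 mRNA was alike between the sexes, while single mice differed. Of the summed per-length level of the 5 AP-1 genes, Jund took 33.7% ± 5.02 in females and 33.3% ± 2.50 in males, Junb 24.7% ± 4.57 and 24.5% ± 3.80, and Fos 20.5% ± 6.62 and 21.7% ± 1.21 (SD, n = 5 each). Jun took 18.5% ± 2.24 and 17.9% ± 3.27 and Fosb 2.55% ± 0.70 and 2.49% ± 1.22. These mean shares differed between the sexes by less than the SD within either sex. Over the 10 mice Jund ran from 27.1% to 40.7%, Junb from 19.2% to 31.3%, Jun from 12.7% to 22.0% and Fos from 10.1% to 28.3%. The shares of Jun, Junb and Jund carry the uncertainty of the overlapping genes given above, and the share of Fosb depends on the exon length used for it. Fos and Fosb together made up between 22.4% and 31.9% of the sum in 9 mice and 11.8% in female replicate 4. The ratio of Junb to Jun per length ran from 1.10 to 1.81 in 9 mice and was 2.47 in male replicate 1.

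Atf3 and Egr1 were the scarcest members. Atf3 (chromosome 1: 191170296 to 191218039), a stress-induced factor of the ATF family, totalled 21 reads in females and 33 in males. Single libraries had between 0 and 8 counts in females and between 3 and 14 in males, and the 0 in female replicate 4 allows up to 0.134 CPM at 3 counts. The filter kept Atf3 out of the main test, and a run without the filter did not call it. At this depth no fold is given. Egr1 (chromosome 18: 34859823 to 34864984), the zinc finger factor, was at 6.06, 4.38, 3.29, 3.93 and 3.29 CPM in female replicates 1 to 5 and 3.73, 4.05, 3.71, 4.37 and 5.11 CPM in male replicates 1 to 5. Its means of 4.19 ± 1.14 and 4.20 ± 0.579 CPM were the closest of any member (log2 fold change -0.0045, SE 0.19, adjusted p = 0.992), and its sign turned without any one of 5 libraries, namely male replicates 4 and 5 and female replicates 3, 4 and 5.

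Ier2 (chromosome 8: 84661331 to 84662852) encodes a small nuclear protein of the immediate early class. It was at 34.3, 32.2, 33.8, 37.7 and 43.0 CPM in female replicates 1 to 5 and 46.8, 49.0, 40.7, 38.3 and 38.0 CPM in male replicates 1 to 5. Only female replicate 5 reached into the range of the males. The means were 36.2 ± 4.29 and 42.6 ± 5.05 CPM (log2 fold change -0.23, SE 0.11, adjusted p = 0.506), and the value was -0.11 without male replicates 1 and 2.

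Dusp1 and Zfp36, the feedback genes, had the largest differences of the 9, neither past the adjusted test. Dusp1 (chromosome 17: 26505590 to 26562128) encodes a phosphatase of p38, JNK and ERK kinases that glucocorticoids also induce. Female replicates 1 to 5 had 15.3, 11.8, 15.4, 9.47 and 14.98 CPM, and male replicates 1 to 5 had 24.7, 16.8, 15.9, 18.9 and 16.2 CPM. All 5 females lay below all 5 males, although the highest female (15.4) and the lowest male (15.9) nearly met. Over all genes tested, 0.865% had all females below all males, and Dusp1 was the only member whose sexes did not overlap. Its log2 fold change was -0.47 (SE 0.17, unadjusted p = 0.0162, adjusted p = 0.506), and it was -0.35 without male replicates 1 and 2. Dusp1 shares 11 exon bases with Ergic1 on the opposite strand, which had 16235 counts over the 10 libraries. The opposite-strand pseudogene Gm8225 (23644 counts) overlaps the gene but shares 0 exon bases.

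Zfp36 (chromosome 7: 28376784 to 28380253), whose product tristetraprolin binds AU-rich mRNAs and speeds their decay, was at 20.9, 14.9, 20.2, 20.2 and 21.2 CPM in female replicates 1 to 5. Male replicates 1 to 5 had 39.8, 29.4, 21.9, 19.0 and 17.0 CPM. Male replicates 1, 2 and 3 lay above every female, and male replicates 4 and 5 lay within the females' range. The log2 fold change was -0.38 (SE 0.21, adjusted p = 0.506), -0.17 with male replicate 1 left out and 0.0074 with male replicate 2 left out as well.

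**Figure D3:**
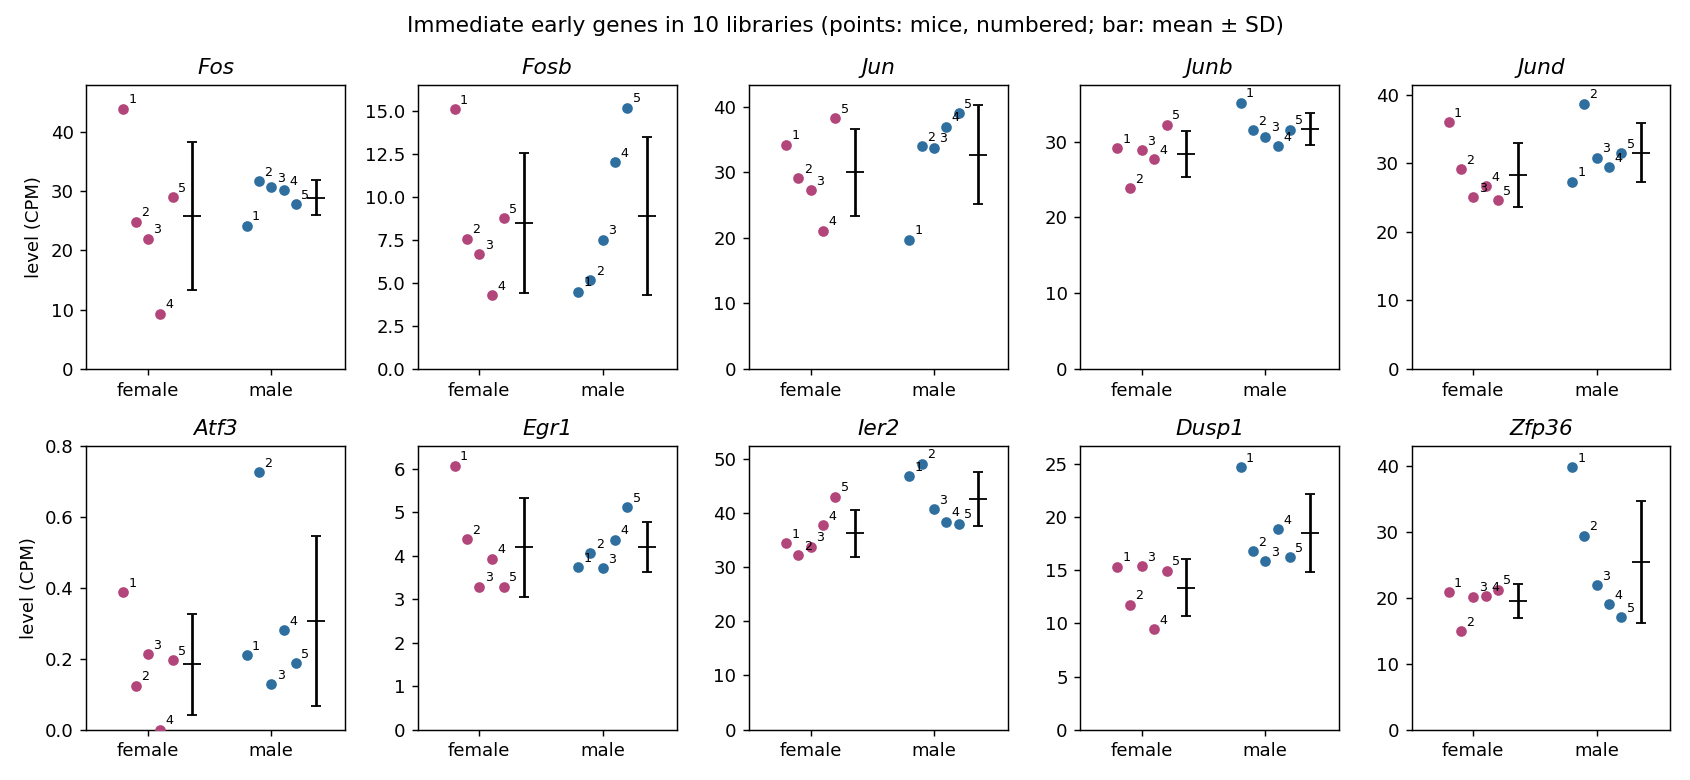
Level in CPM of each gene in each library, with points numbered by replicate and bars of mean ± SD over 5 mice. Female replicate 4 is lowest for Fos at 9.29, male replicate 1 is lowest for Jun at 19.7 and highest for Zfp36 at 39.8, and only Dusp1 shows no overlap between the sexes.

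The members differed in how much they varied between mice of 1 sex. The SD of log2 CPM within a sex was 0.70 for Fosb and 0.59 for Fos, against 0.13 for Junb, 0.17 for Ier2 and 0.21 for Jund. Jun, Egr1, Dusp1 and Zfp36 lay between, at 0.36, 0.29, 0.29 and 0.38. The median of the 9 was 0.29 and that of all genes tested 0.27. Among the genes whose mean level lay within 2-fold of its own, 98.4% of 4299 varied less than Fos and 96.1% of 2974 less than Fosb, but 18.6% of 4380 varied less than Junb and 36.6% of 4474 less than Ier2. For Jun the share was 88.1% of 4394 genes and for Zfp36 87.6% of 4075. The value of Fos came from the females, with an SD of 0.82 against 0.16 in males, and among the males Fos varied less than Jund (0.19) and Ier2 (0.17). For Fosb the SD was 0.65 in females and 0.75 in males.

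The members did not vary as 1 group. Pearson's r of log2 CPM over the 10 libraries ran from -0.56 to 0.80 over the 36 pairs, with a median of 0.22, and 27 were positive. Among Fos, Fosb and Jun r ran from 0.63 to 0.77, and among Junb, Ier2, Dusp1 and Zfp36 from 0.53 to 0.80. These groups were read from the same values, so their r is a description. Between these sets the 12 pairs had a median r of 0.04. The strongest pairs were Ier2 with Zfp36 (r = 0.803, permutation p = 0.00335; rho = 0.782, permutation p = 0.0104), Junb with Ier2 (r = 0.794, p = 0.00393; rho = 0.830, p = 0.00441) and Fosb with Jun (r = 0.773, p = 0.00993; rho = 0.855, p = 0.00303). No pair passed after adjustment over the 36 (smallest adjusted p 0.0707 for r and 0.0794 for rho), and 9 had an unadjusted permutation p under 0.05 for r. Without the 2 mice farthest from the median of the first gene these 3 values of r were 0.559, 0.666 and 0.793, and after the mean of each sex was taken out they were 0.756, 0.684 and 0.781. Other pairs of the same groups rested more on 2 mice: without them r was 0.270 for Fos with Fosb, 0.249 for Junb with Zfp36 and 0.251 for Ier2 with Dusp1.

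**Figure D4:**
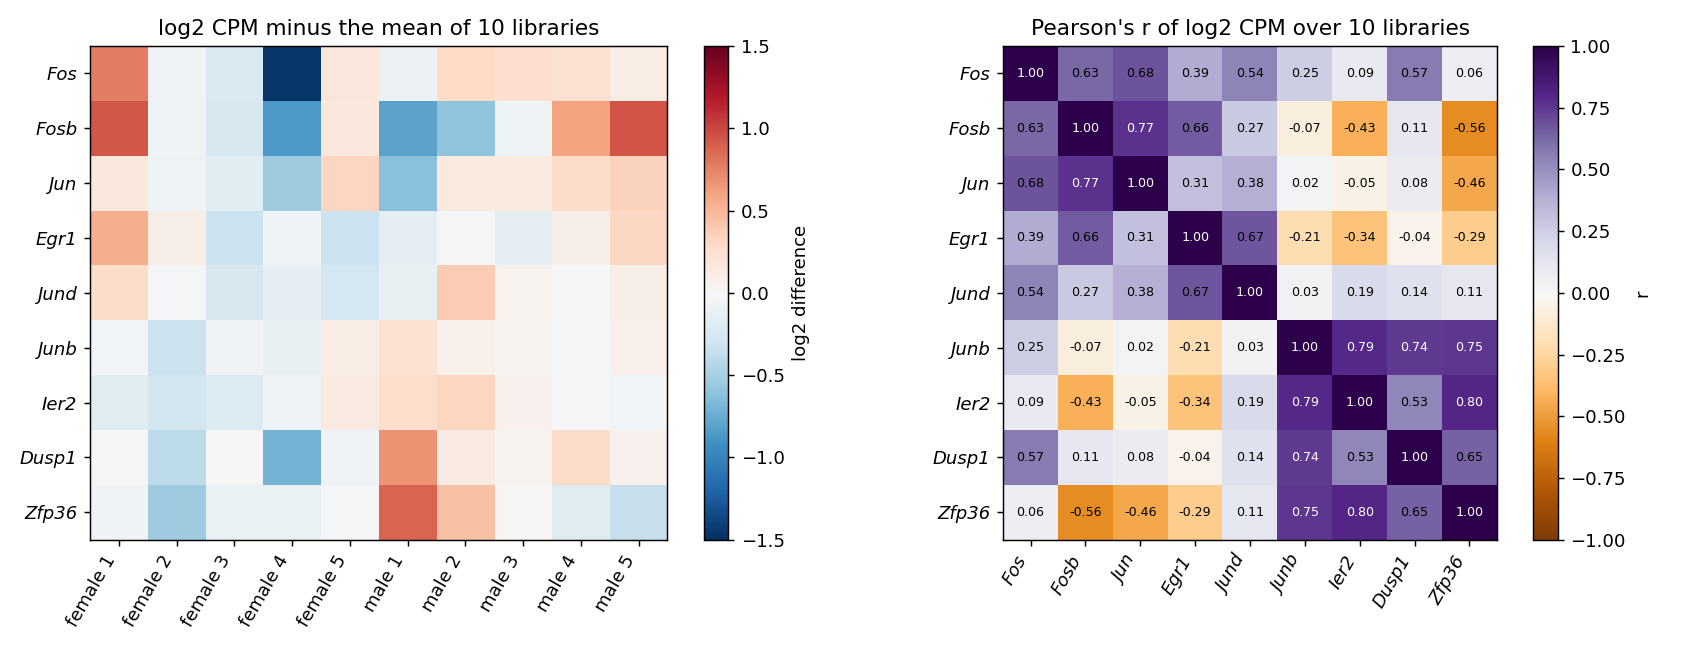
Left, log2 CPM of 9 genes minus the mean over the 10 libraries, with red above and blue below that mean; right, Pearson's r between the genes over the 10 libraries. Fosb is high in female replicate 1 and male replicate 5, Zfp36 in male replicates 1 and 2, and r between Fosb and Zfp36 is -0.56.

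Levels of several members moved with the summed level of marker lists. Each of the 9 genes was set against the log2 summed level of 11 marker lists, 99 relations in all, of which 6 passed for r and 2 for rho at an adjusted p under 0.05 (26 for r unadjusted). In bulk RNA, fewer cells of a type and less RNA per cell cannot be told apart.

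Fosb went with stromal markers. All 7 listed genes had counts in both sexes, and Col1a1 and Col1a2, the chains of type I collagen, made up 53.2% and 38.3% of the summed level. This sum ran from 309 to 2500 CPM in females and from 375 to 2771 CPM in males, and its highest values were in female replicate 1 and male replicate 5, the mice with the highest Fosb. Its lowest value was in female replicate 4, the mouse with the lowest Fos and Fosb. Over the 10 libraries r was 0.874 (permutation p = 0.00146, adjusted p = 0.0361) and rho was 0.867 (permutation p = 0.00229, adjusted p = 0.0756). Without female replicate 1 and male replicate 5, r was 0.697, and after the sex means were taken out it was 0.885. Egr1 had an r of 0.734 with the same list (permutation p = 0.0137, adjusted p = 0.0827; rho = 0.539, permutation p = 0.114, adjusted p = 0.321), which fell to 0.255 without those mice and so rested on them. Fos had an r of 0.537 with this list (permutation p = 0.0976, adjusted p = 0.261). By rank the relation of Fos was weaker (rho = 0.236, permutation p = 0.514, adjusted p = 0.748). Fosb also ran against macrophage markers, with an r of -0.773 (permutation p = 0.00776, adjusted p = 0.0827). For the same list rho was -0.830 (permutation p = 0.00465, adjusted p = 0.0787), and r was -0.616 without male replicates 1 and 5. The part of stromal cells or macrophages in the level of Fosb was not tested.

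Zfp36 went with mature neutrophil markers, of which all 11 had counts in both sexes. The summed levels in male replicates 1 and 2 were 9352 and 2885 CPM, against 1050 CPM in the highest female, and these 2 males also had the highest Zfp36. With Zfp36 r was 0.836 (permutation p = 0.00276, adjusted p = 0.0455) and rho was 0.673 (permutation p = 0.0383, adjusted p = 0.246). Without male replicates 1 and 2 r was 0.365, so the relation rested on those mice. It was not particular to neutrophils. Zfp36 had an r of 0.856 with monocyte, 0.779 with B lineage, 0.745 with macrophage and 0.714 with erythroid markers, none past adjustment. Without male replicates 1 and 2 the r was 0.060 for B lineage and -0.146 for erythroid markers, so both rested on those mice. For monocyte markers r was 0.321 without male replicate 1 and female replicate 2, and for macrophage markers 0.336 without male replicates 1 and 5. With megakaryocyte, endothelial and stromal markers r was negative (-0.360, -0.261 and -0.534). Dusp1 had an r of 0.746 with the neutrophil list (permutation p = 0.0149, adjusted p = 0.0827; rho = 0.624, permutation p = 0.0609, adjusted p = 0.274), or 0.508 without male replicates 1 and 2. For erythroid markers, which ran from 6051 to 10475 CPM in females and from 12295 to 48958 CPM in males, Dusp1 had an r of 0.787 (permutation p = 0.00532, adjusted p = 0.0658) and a rho of 0.915 (permutation p = 4.7e-04, adjusted p = 0.0233). These markers separated the sexes as Dusp1 did, and after the sex means were taken out r was 0.558, and without male replicates 1 and 2 it was 0.639. The part of any of these cell types in the levels of Zfp36 and Dusp1 was not tested.

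Ier2, Zfp36 and Junb went with the list named for T and natural killer cells, but 93.4% of its summed level came from Nkg7, a gene known from the granules of cytotoxic cells, and the T cell receptor genes Cd3e, Cd3d and Cd3g averaged 0.248, 0.627 and 0.45 CPM. The defining T cell genes were thus near 0, and the list stands for Nkg7 and not for a cell type, since which cells of these libraries carried Nkg7 was not tested. For Ier2 r was 0.940 (permutation p = 3e-05, adjusted p = 0.00297) and rho was 0.976 (permutation p = 5e-05, adjusted p = 0.00495), and r stayed at 0.957 without male replicate 1 and female replicate 2. For Zfp36 r was 0.915 (permutation p = 7.5e-04, adjusted p = 0.0248; rho = 0.806, permutation p = 0.00726, adjusted p = 0.0898), and for Junb it was 0.857 (permutation p = 0.00212, adjusted p = 0.042; rho = 0.830, permutation p = 0.00477, adjusted p = 0.0787). Without the same mice these were 0.760 and 0.563. Ier2 also went with mast cell and basophil markers (r = 0.905, permutation p = 5.6e-04, adjusted p = 0.0248; rho = 0.855, permutation p = 0.00316, adjusted p = 0.0782), with r at 0.860 without female replicates 2 and 3.

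**Figure D5:**
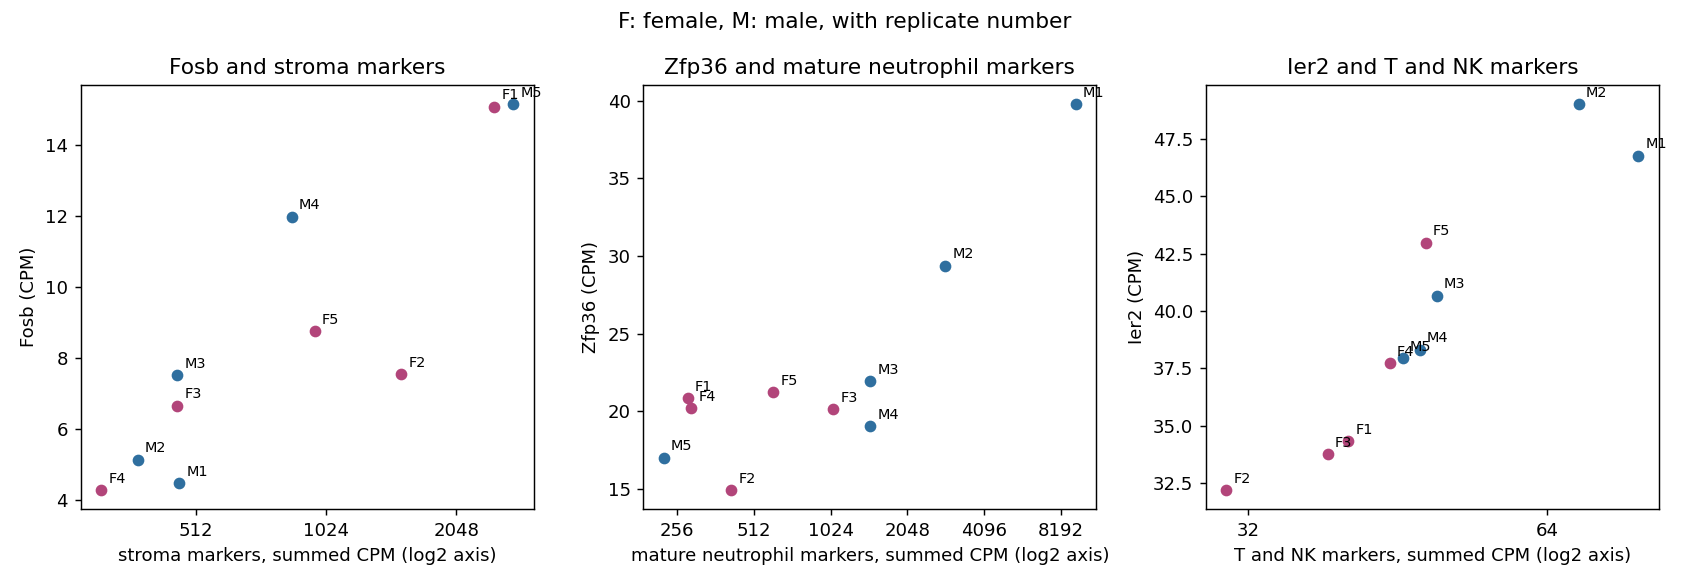
Level in CPM of Fosb, Zfp36 and Ier2 in each mouse against the summed CPM of stromal, mature neutrophil, and T and natural killer markers (log2 axis). Fosb is near 15 in the 2 mice with most stromal RNA, Zfp36 is 39.8 and 29.4 in the 2 mice with most neutrophil RNA, and Ier2 follows a list that is mostly Nkg7.

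Genes whose pattern over the 10 libraries was most like Fos were Chek2, a DNA damage checkpoint kinase (r = 0.894), Shf (0.860), Dgcr2 (0.843), Bglap, which encodes the osteoblast protein osteocalcin (0.820), and Car3, a carbonic anhydrase (0.816). They were taken as the highest r among 9512 genes of at least 5 CPM, and share libraries and depth, so r is given as a description. Jun and Fosb had an r with Fos of 0.683 and 0.629, and 62 and 127 of those genes had a higher one. Most like the mean of the 9 members were Dgcr2 (0.922), Tusc1 (0.917), Naprt, an enzyme of NAD synthesis (0.869), Chek2 (0.864) and Parp16 (0.859). With rank correlation 0 of the 5 genes nearest Fos and 1 of the 5 nearest the mean were the same.

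The wider immediate early network gave no call by edgeR in 6 lists of related genes. Of 10 tested AP-1 partners 4 were higher and 6 lower in females, with 1 at an unadjusted p under 0.05. The lowest p was that of Jdp2, a repressor that pairs with JUN (5.43 ± 1.15 against 7.91 ± 2.37 CPM in females and males, log2 fold change -0.54, SE 0.21, adjusted p = 0.506), and leaving out male replicate 1 gave -0.35, leaving out male replicate 2 as well -0.26. Atf7 followed with a log2 fold change of 0.19 (0.10 without male replicate 2 and 0.054 without both) and Fosl2 with -0.29 (-0.0061 without male replicate 1 and -0.50 without female replicate 5).

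Of 15 other early factors 4 were higher and 11 lower (median log2 -0.23), with 1 in each direction at an unadjusted p under 0.05. Myc, the growth factor-induced regulator, was at 204 ± 13.8 against 169 ± 18.8 CPM (log2 fold change 0.27, SE 0.09), and the anti-proliferative gene Btg2 at 21.9 ± 4.42 against 29.6 ± 9.01 CPM (-0.44, SE 0.20), or -0.25 without male replicate 1. The quiescence factor Klf2 was at 4.99 ± 1.94 against 7.49 ± 2.46 CPM (-0.59), or -0.32 without male replicates 1 and 2. All 3 had an adjusted p of 0.506.

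Of 21 feedback inhibitors 9 were higher and 12 lower (median log2 -0.08), with 3 at an unadjusted p under 0.05, all lower. They were Ppp1r15a, which reverses the block of translation under stress (39.4 ± 6.31 against 51.3 ± 6.72 CPM, log2 fold change -0.38), the NF-kB inhibitor gene Nfkbia (17.6 ± 2.49 against 23.2 ± 4.02 CPM, -0.40) and the pseudokinase gene Trib1 (1.09 ± 0.366 against 2.20 ± 1.69 CPM, -1.02). Trib1 was at -0.42 without male replicate 1 and Nfkbia at -0.24 without male replicates 1 and 2, and none of the 3 passed the adjusted edgeR test (0.506 each).

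Of 20 upstream kinases and factors 15 were higher and 5 lower (median log2 0.06), and 1 had an unadjusted p under 0.05. The cofactor gene Elk4 was at 21.3 ± 1.20 against 30.8 ± 12.8 CPM (-0.53), or -0.24 without male replicate 2 and -0.21 with male replicate 1 left out too, and serum response factor itself, Srf, at 76.0 ± 6.44 against 58.1 ± 16.8 CPM (0.39), or 0.25 without male replicate 2 and 0.14 without both. Mapk3, the ERK1 kinase gene, differed by -0.19, and by -0.08 without male replicate 1. Their adjusted p was 0.506.

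Genes of the heat shock and glucocorticoid responses, which handling and stress also move, had the smallest p of these lists. Of 10 heat shock genes 8 were higher in females (median log2 0.10), with 1 at an unadjusted p under 0.05, and of 7 glucocorticoid-induced genes 5 were higher (median 0.14), with 2. The chaperone gene Hsph1 (203 ± 24.3 against 137 ± 13.4 CPM, log2 fold change 0.56, adjusted p = 0.170) and the clock gene Per1 (31.9 ± 3.89 against 19.4 ± 4.11 CPM, 0.72, adjusted p = 0.285) did not pass by edgeR and were called by DESeq2 (adjusted p = 2.16e-04 and 0.00675). All females lay above all males in both, which held for 1.06% of all genes. Dusp1, which glucocorticoids also induce, was lower in females, as were 2 of the 7 listed glucocorticoid-induced genes. The part of glucocorticoids in any of these levels was not tested. Hspa8 (0.17), Hspe1 (-0.34, or -0.095 without male replicate 2), Fkbp5 (0.32, or 0.21 without male replicate 2) and Klf9 (0.14, or 0.08 without male replicate 3) were the other genes of smallest p in these lists.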

How the data were processed

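RNA-seq was available for 10 libraries, 1 per mouse. Tools listed in the submitters' processing notes are STAR, featureCounts and DESeq, and the builds listed are GRCm38.p6 and mm10. Versions and the counted annotation are not stated. The authors deposited raw read counts per Ensembl gene, which were used; their normalized table was not used here. Symbols, coordinates and exon lengths come from GENCODE vM21 (GRCm38), in which all but 62 identifiers were found.

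Genes were filtered with filterByExpr by sex, scaled by TMM and tested with the robust quasi-likelihood test of edgeR 4.0.16 in R 4.3.3, with sex as the only term. Benjamini-Hochberg adjustment ran over 14674 genes, with calls at 0.05. The SE is the log2 fold change divided by the root of F. CPM use totals over tested genes times the TMM factor, and log2 CPM a prior count of 2. Relations used 100000 permutations, two-sided. Alternatives were DESeq2 1.42.0, its size factors, other filters, the replicate number as a block and left-out libraries. No pair of libraries of 1 sex was as close as sampling noise allows (smallest chi-square over degrees of freedom 8.93).

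On counts simulated for this comparison (14497 genes), the test recovered 87% of genes with a true log2 change of 1 and 98% of those with 2. Recovery of smaller changes is not given. These shares therefore say nothing of differences as small as the members' estimates, which ran from -0.47 to -0.0045. Counting error alone sets the stated floor of 3 counts. Genes named are the members, in each related list the called genes and the 3 of smallest p, and the 5 genes of highest r; marker genes stand for their lists. Members, lists and rules were chosen with earlier results of these data known. The relations between members and with the marker lists, the motifs searched and the promoters printed were chosen after the values were seen.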

Additional observations from a re-analysis of the deposited data

Results flagged for a closer look

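In 44 groups of 5 mice (10 genes, 11 marker lists and the share of Fos with Fosb, each in both sexes) 8 values of single mice lay far from the rest of their sex, judged by the gap to the nearest mouse over the whole range. For normally distributed values the rule marks about 1 group in 20 by chance. The values were not on a log scale and the groups share the same 10 libraries, so that rate need not hold here. Among the members the marked values were Jun in male replicate 1, at 19.7 CPM the lowest male, Atf3 in male replicate 2, at 0.727 CPM (14 counts) the highest male, and Zfp36 in female replicate 2, at 14.9 CPM the lowest female. Male replicate 1 also had the highest summed level among males of monocyte markers (985 CPM) and of macrophage markers (98.7 CPM). Megakaryocyte markers summed to 1191 CPM in male replicate 2. In male replicate 5, endothelial markers summed to 129 CPM and stromal markers to 2771 CPM, each the highest of the males.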

How the results depend on the processing

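The count of 0 called members held in every alternative run: DESeq2, its size factors, no filter on low counts, at least 1 CPM in 5 libraries, the replicate number as a block, each library left out in turn, and male replicates 1 and 2 left out together. The median log2 fold change of the members lay between -0.26 (without female replicate 1) and -0.12 (without female replicate 3) with 1 library left out, and between -0.16 and -0.11 in the other alternatives. Over all genes DESeq2 called 53 in place of 8, and 1 heat shock gene (Hsph1) and 1 glucocorticoid-induced gene (Per1) in place of 0. The replicate block called 5 genes and put Fos at -0.31. Same-numbered mice did not deviate together (r from -0.30 to -0.0071, and 0 of 10 libraries went best with their own number). The labels do not say whether equal numbers share an origin or handling, and these values cannot exclude it. Leaving out 1 library gave 6 to 10 calls over all genes. The sign turned for Fos (-0.44 to 0.050), Fosb (-0.38 to 0.21) and Egr1 (-0.17 to 0.077) when 1 library was left out, for Egr1 without a filter (0.0017) and for Zfp36 without male replicates 1 and 2 (0.0074), and the cause was not tested. Without a filter Atf3 was fitted too. With rank correlation 0 and 1 of the 5 nearest genes were shared for Fos and for the mean of the members. Atf3 alone among the members had too few counts to pass the filter. Egr1 had between 77 and 125 counts per library, and the part of depth in the spread of the tested members was not tested.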
